A study of Bos taurus with 8 samples.

Results

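The genes described here are 32 genes of sterol and fatty acid synthesis, taken by name from a table of single-cell expression in bovine embryos. Of these, 31 had a row among the 18825 genes of the table, and STARD4, a sterol carrier, had none. The list holds 19 enzymes that build cholesterol, 5 genes of the SREBP system that controls them and 7 enzymes of fatty acid synthesis. A gene was tested if its average reached 10 CPM (a cell's reads on the usual per-million scale) in at least 1 average of a class in a library, and 30 of the 31 passed. TM7SF2, a sterol reductase, did not pass, and its highest average was 9.55 CPM.

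Cholesterol is made from acetyl-CoA through mevalonate, the isoprenoids, squalene and lanosterol, and fatty acids are made from the same acetyl-CoA. The SREBP proteins are membrane-bound transcription factors that are cut free when sterols are low and then switch on most genes of both routes. SCAP escorts them to the site of cutting, and the INSIG proteins hold them back. In early embryos, sterols and fatty acids serve new membranes, lipid droplets and signalling, and the trophectoderm is the outer epithelium that later forms most of the placenta.

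All cells came from wildtype embryos of Bos taurus. There were 286 cells in 6 libraries, each a pool of barcoded single cells, numbered as replicates 1 to 6 in the labels. The cell table gives 7 classes: Morula on day 6 after fertilization, EB on day 7, MB ICM and MB TE on day 8, and LB EPI, LB PE and LB TE on day 9. In these names TE stands for trophectoderm, ICM for inner cell mass, EPI for epiblast and PE for primitive endoderm, or hypoblast; EB, MB and LB are kept as the table has them. The labels give no breed, sex or embryo for a cell. Another 2 libraries held embryos that had received the BE3 base editor, alone or with guides to SOX2, and were not analysed here. Nothing says that the libraries came from separate embryos, so the p-values reflect the spread among libraries and that spread may be technical.

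The median depth was 150770.5 reads per cell, and class medians ran from 39210 reads in LB PE to 198116 in MB TE. The unit of comparison was the average over the cells of a class in a library, where it held at least 3 cells, and there were 16 such averages. The Morula averages came from replicates 4 and 6 and the EB average from replicate 4; replicates 1 and 6 held 2 EB cells each, too few for an average. Classes of days 8 and 9 came from replicates 1, 2, 3 and 5, so from day 7 to day 8 the effects of age and of library cannot be told apart. The 48 cell barcodes all occurred in more than 1 library, so a cell was identified by its library code and barcode together. The classes were told apart by summed markers: the 9 trophectoderm markers summed to 28400 CPM or more in every TE average and to at most 5930 CPM in the others. KRT8 and KRT18 gave most of this sum, with means of 23300 and 8978 CPM in LB TE. Not every marker followed the sum. TFAP2C averaged 183 CPM in LB EPI and 129 CPM in LB TE, and TEAD4 averaged 70.05 CPM in LB PE and 57.3 CPM in LB TE. The 8 epiblast markers summed to 2500 to 2990 CPM in LB EPI, and the 9 hypoblast markers to 5730 to 6080 CPM in LB PE, where SOX17 was at 0. FN1 gave most of the hypoblast sum, at 4472 to 4714 CPM. PRDM14, an epiblast marker, averaged 14.5 CPM in LB EPI and 16.3 CPM in LB PE. Other cell types were low but not absent: the 6 fibroblast markers reached 1030 CPM in LB PE of replicate 5, 696 CPM in MB ICM and 649 CPM in Morula. Cumulus and granulosa markers reached 856 CPM in the Morula average of replicate 6, of which INHBA gave most. Their part in the results was not tested.

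On day 9, a larger share of the RNA of trophectoderm cells than of epiblast cells came from cholesterol enzymes. Of the 30 members tested, 13 were called higher in LB TE than in LB EPI, by 1.34 to 2.60 on the log2 scale, and LBR was called lower. Among all 12540 genes tested, 8.27% were called higher and 6.9% lower in the same comparison. The median log2 difference was 1.13 over the 30 members and 1.72 over the 18 tested cholesterol enzymes, against -0.04 over all genes. Levels of the members in 17 of 30 cases were higher in both LB TE averages than in all 3 LB EPI averages, and in 2 cases, LBR and SREBF1, lower. Of all genes, 22.4% lay above without overlap and 23.8% below. The calls leaned on replicate 3: without it LB TE had 1 average, and most of them were lost.

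**Figure D1:**
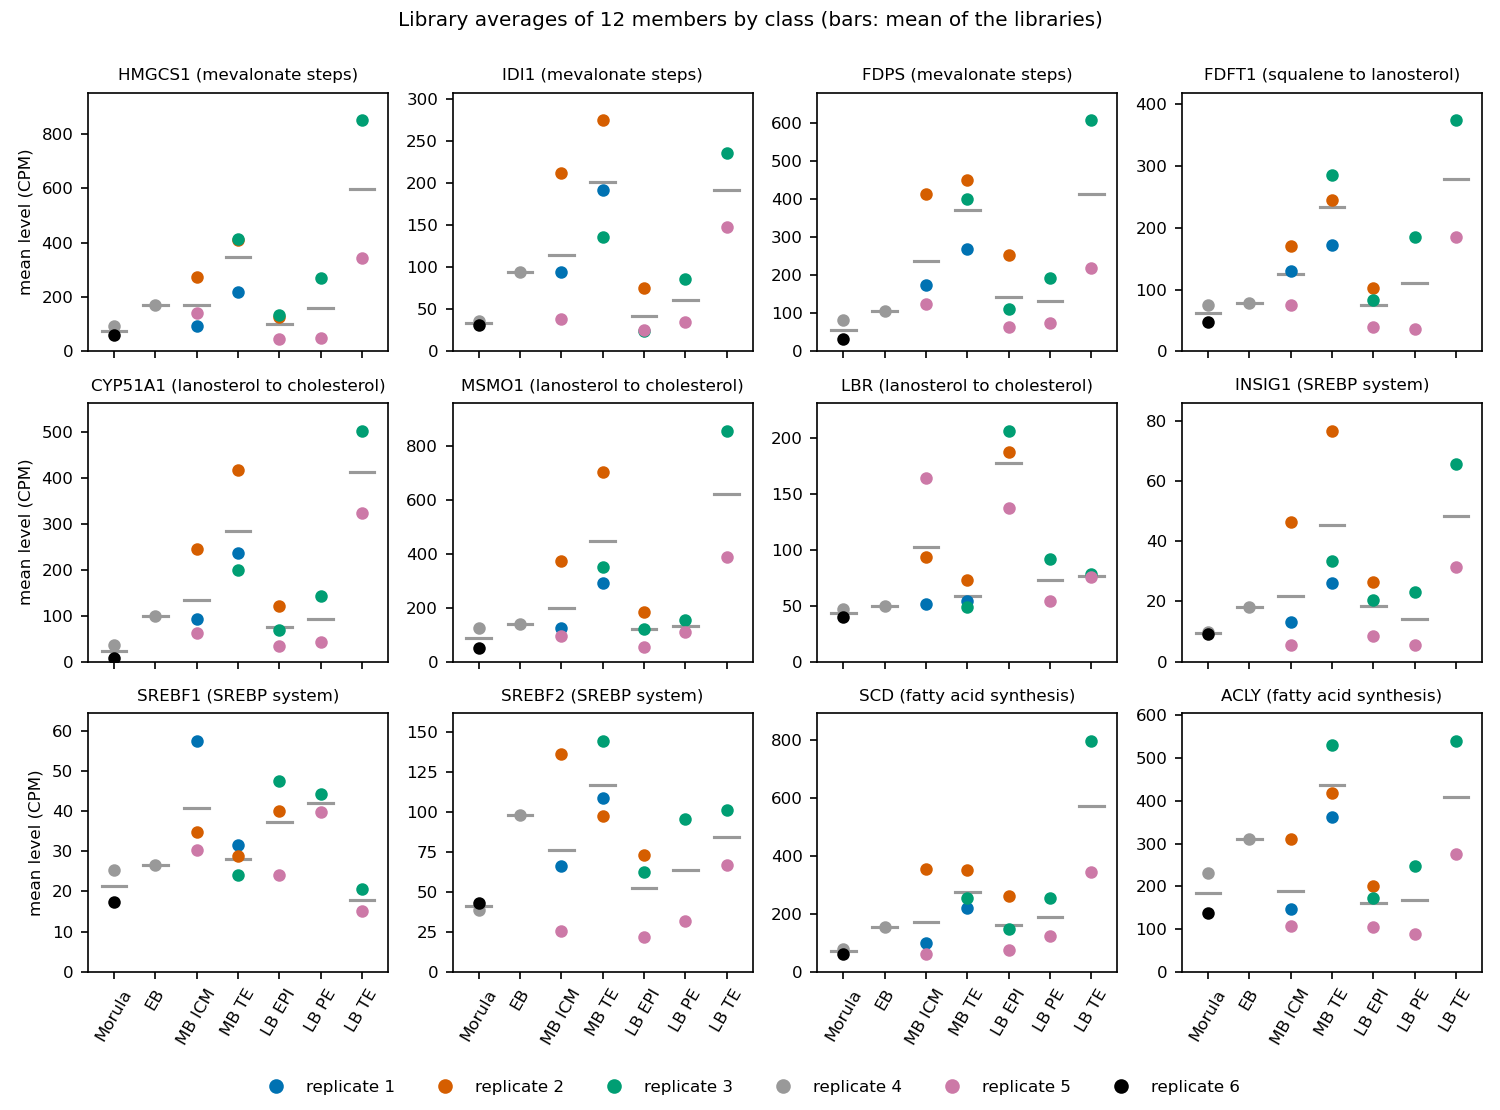
Library averages of 12 members in CPM (linear axis from 0) by class, with points coloured by replicate and grey bars at the mean over libraries. In LB TE the HMGCS1 averages lie at 849.6 and 344.9 CPM, above the 46.5 to 132 CPM of LB EPI, while LBR is highest in LB EPI and SREBF1 lowest in LB TE.

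Of the 7 mevalonate enzymes, 5 were called. HMGCS1, which joins acetyl-CoA to acetoacetyl-CoA, averaged 849.6 CPM in LB TE of replicate 3 and 344.9 in replicate 5. In LB EPI it averaged 125, 132 and 46.5 CPM in replicates 2, 3 and 5. The groups did not overlap, and the difference was 2.50 ± 0.49 (log2, SE; limma adjusted p = 0.00186). IDI1, which isomerises isopentenyl diphosphate, averaged 236 and 147 CPM in LB TE and 75.3, 23.9 and 25.0 CPM in LB EPI. Its difference was 2.25 ± 0.45 (adjusted p = 0.00166). ACAT2, the cytosolic thiolase that makes acetoacetyl-CoA, averaged 188 and 58.9 CPM against 38.3, 16.2 and 20.4 CPM (1.92 ± 0.52, adjusted p = 0.0156). PMVK, the second mevalonate kinase, averaged 81.5 and 29.0 CPM against 10.7, 10.9 and 5.13 CPM (1.80 ± 0.46, adjusted p = 0.00917). For FDPS, farnesyl diphosphate synthase, the groups overlapped: 608 and 219.7 CPM in LB TE against 255, 111 and 63.6 CPM in LB EPI. Its difference still passed, at 1.64 ± 0.48 (adjusted p = 0.0274). MVD, the decarboxylase, and MVK, the first mevalonate kinase, were not called, at 1.19 ± 0.46 (adjusted p = 0.0879) and 0.18 ± 0.46 (adjusted p = 0.893). MVD was called with the library as a fixed block (1.41 ± 0.37, adjusted p = 0.019) and by limma-voom (adjusted p = 0.0165). In LB TE, MVK averaged 134 CPM in replicate 3 and 23.1 CPM in replicate 5, and without replicate 3 its difference turned to -0.57 (adjusted p = 0.677).

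Of the 3 enzymes from farnesyl diphosphate to lanosterol, limma called FDFT1. This gene encodes squalene synthase, the first step that leads to sterols alone, and it averaged 374 and 185 CPM in LB TE and 102, 83.0 and 39.4 CPM in LB EPI (1.84 ± 0.42, adjusted p = 0.0045). SQLE, squalene epoxidase, averaged 173 and 59.1 CPM in LB TE against 88.5, 80.4 and 44.7 CPM in LB EPI, so its groups overlapped (0.57 ± 0.40, adjusted p = 0.401). LSS, which closes the rings, did not overlap at 67.0 and 36.5 against 25.1, 15.9 and 21.3 CPM, and was not called (1.10 ± 0.60, adjusted p = 0.256), though limma-voom (adjusted p = 0.0498) and the mean over cells of log2 values (0.0332) called it.

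Among enzymes that turn lanosterol into cholesterol, CYP51A1, the 14-demethylase, averaged 503.9 and 325 CPM in LB TE and 122, 68.0 and 33.1 CPM in LB EPI. The difference, 2.60 ± 0.49 (adjusted p = 0.0013), was the largest of the members in this comparison. MSMO1 and NSDHL act in turn to remove the methyl groups at carbon 4. MSMO1 averaged 857 and 386 CPM against 185, 120.2 and 53.0 CPM (2.48 ± 0.47, adjusted p = 0.00137). NSDHL averaged 129.6 and 74.0 CPM against 26.8, 20.6 and 17.5 CPM (1.96 ± 0.51, adjusted p = 0.0118). SC5D, the C5 desaturase, averaged 280.4 and 156 CPM against 129, 44.8 and 35.9 CPM (1.82 ± 0.49, adjusted p = 0.0157). All 4 were without overlap. HSD17B7, EBP and DHCR7, which act at the methyl removal, the double-bond shift and the last reduction, had differences of 0.87, 0.65 and 0.78 and were not called by limma. With the library as a fixed block, EBP (0.92 ± 0.27, adjusted p = 0.0355) and DHCR7 (1.09 ± 0.33, adjusted p = 0.0398) were called, and limma-voom called HSD17B7 (adjusted p = 0.0252). HSD17B7 averaged 40.4 and 13.0 CPM in LB TE against 19.4, 12.3 and 3.07 CPM in LB EPI. EBP averaged 197 and 170.0 CPM against 234, 104.5 and 82.2 CPM. DHCR7 averaged 185 and 63.6 CPM against 147, 66.1 and 31.9 CPM. In all 3 the LB EPI average of replicate 2 lay inside the LB TE range or above it.

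LBR went the other way. It encodes the lamin B receptor, an inner nuclear membrane protein that also reduces the sterol C14 double bond, the step that TM7SF2 serves as well. LBR averaged 188, 207 and 138 CPM in LB EPI, and 78.3 and 75.9 CPM in LB TE. The difference was -1.08 ± 0.36 (adjusted p = 0.0474), and this call was lost under 10 of 14 alternative settings. Leaving out replicate 2, 3, 4, 5 or 6 gave adjusted p-values of 0.136, 0.271, 0.0581, 0.0826 and 0.0535, with differences of -1.02 to -1.17. LB PE averaged 92.0 and 54.6 CPM, below every LB EPI average, with a difference from LB EPI of -1.19 ± 0.36 (adjusted p = 0.0607).

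In the fatty acid route, ACLY, which releases acetyl-CoA from citrate, averaged 541 and 276 CPM in LB TE and 202, 174 and 104 CPM in LB EPI (1.34 ± 0.38, adjusted p = 0.0174). SCD, which makes monounsaturated fatty acids, averaged 796 and 343 CPM against 263, 146 and 74.5 CPM (1.97 ± 0.48, adjusted p = 0.00888). ELOVL6, which extends palmitate, averaged 1260 and 823 CPM against 733, 231 and 311 CPM (1.53 ± 0.44, adjusted p = 0.0232). The 3 were higher in both LB TE averages than in any LB EPI average. The core synthesis enzymes were not called: ACACA, acetyl-CoA carboxylase, differed by 0.48 ± 0.42 and FASN, fatty acid synthase, by 0.30 ± 0.52. In LB TE and LB EPI, ACACA averaged 75.8 and 23.2 against 43.2, 28.6 and 21.9 CPM, and FASN 307 and 199 against 446, 213 and 110.7 CPM, so both overlapped. The ACACA difference was -0.07 without replicate 3. FADS1 and FADS2, desaturases of polyunsaturated fatty acids whose genes are neighbours, differed by 0.53 and 0.84 and were not called. FADS1 averaged 15.6 and 10.4 CPM in LB TE and 4.58 to 8.47 CPM in LB EPI, and did not overlap.

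None of the 5 SREBP system genes was called between LB TE and LB EPI by limma with the library as a random block. INSIG1, itself a target of SREBP, averaged 65.7 and 31.4 CPM in LB TE and 26.4, 20.6 and 8.53 CPM in LB EPI (1.16 ± 0.44, adjusted p = 0.0839). SREBF2, the factor that favours sterol genes, averaged 101 and 66.9 CPM against 73.0, 62.7 and 21.7 CPM (0.77 ± 0.44, adjusted p = 0.276). SREBF1, the factor that favours fatty acid genes, was the reverse, at 20.6 and 15.2 CPM in LB TE and 40.0, 47.5 and 24.2 CPM in LB EPI (-0.72 ± 0.33, adjusted p = 0.168). SCAP differed by -0.19 ± 0.42 and INSIG2 by 0.83 ± 0.37. These non-calls depended on the fit. INSIG1 was called higher with the library as a fixed block (adjusted p = 0.0134), by limma-voom on recovered reads (0.00342) and with log2 values averaged over cells (0.0154). SREBF2 was called by limma-voom (0.0347) and INSIG2 with the mean of log2 values (0.0456). Over all 16 averages SREBF1 ranged from 15.2 to 57.5 CPM and SREBF2 from 21.7 to 144 CPM. These are RNA levels, and the cutting of the SREBP proteins was not measured.

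**Figure D2:**
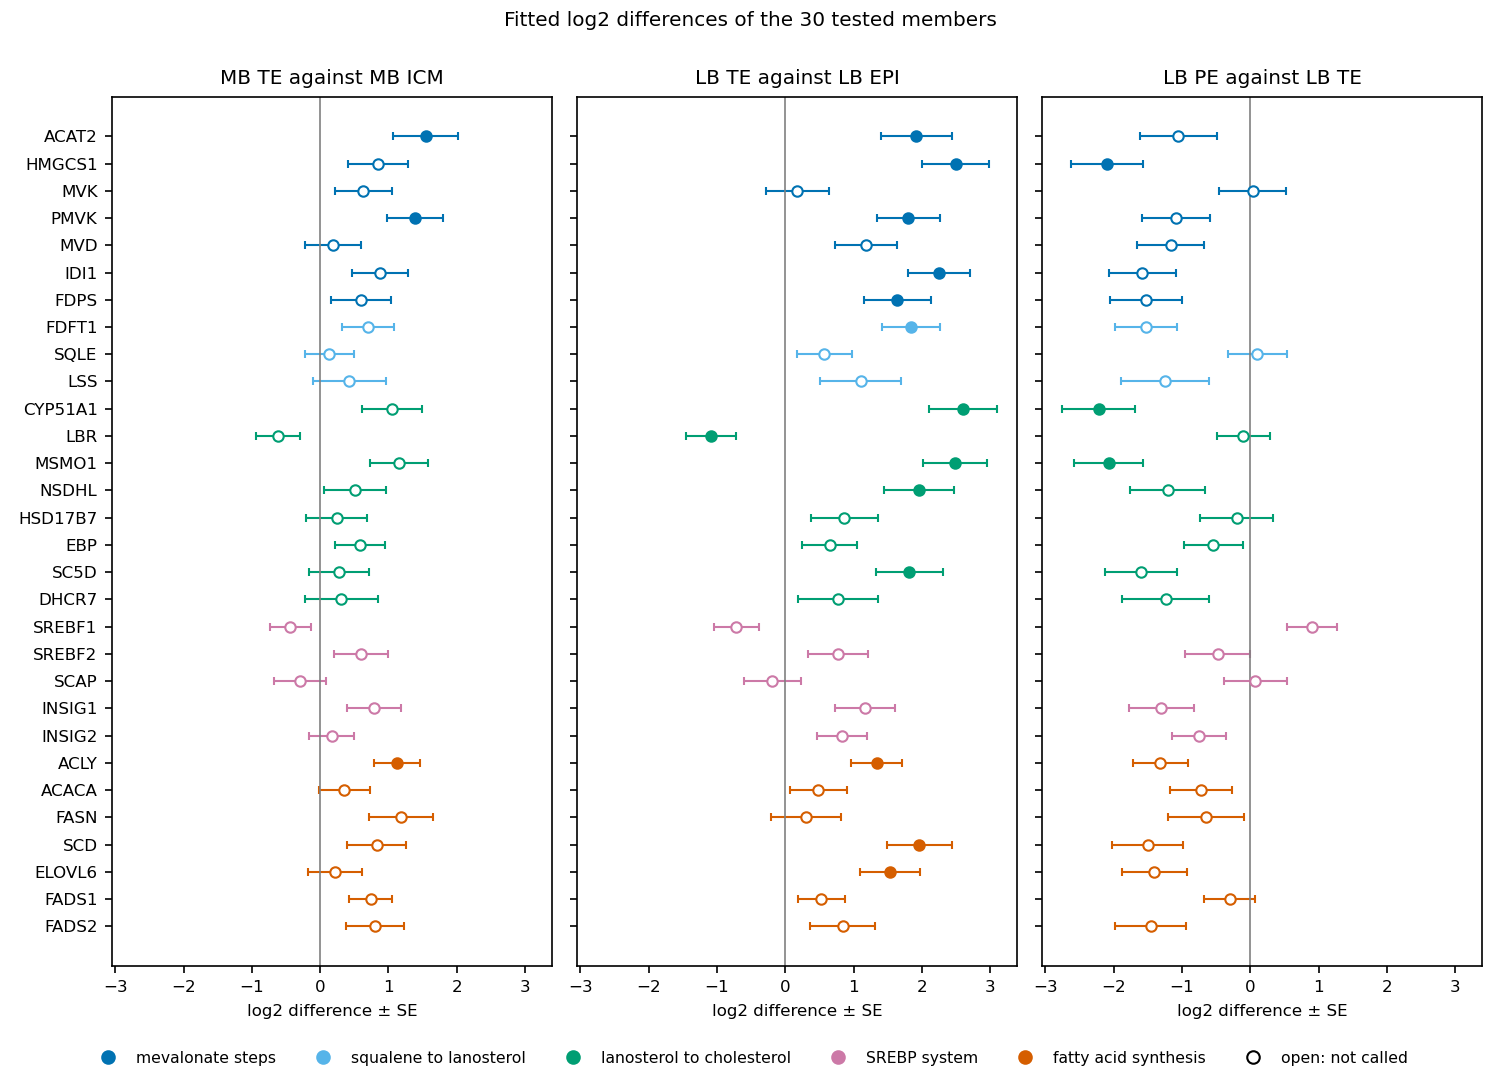
Fitted log2 differences with standard errors for the 30 tested members in pathway order, in 3 comparisons; filled points passed an adjusted p of 0.05. Filled points number 3 for MB TE against MB ICM, 14 for LB TE against LB EPI and 3 for LB PE against LB TE, the last all to the left of 0.

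Replicates 3 and 5 each held both day 9 classes, so the difference could be read within a library. It was positive for 27 of 30 members in replicate 3, with a median of 1.46, and for 27 of 30 in replicate 5, with a median of 1.17. Of all genes, 45.9% were positive in either library. CYP51A1 differed by 2.72 and 2.96 in replicates 3 and 5, HMGCS1 by 2.60 and 2.65, MSMO1 by 2.74 and 2.65, and FDFT1 by 2.05 and 1.98. ACAT2 was less even, at 2.92 and 1.18, and MVK had opposite signs, at 0.88 and -0.34. With replicate 3 left out, LB TE had 1 average, whose spread was assumed to be that of the other classes. The 13 members called higher then kept differences of 0.96 (ELOVL6) to 2.50 (CYP51A1), and most lost the call. With replicate 5 left out, which also left 1 LB TE average, these differences ran from 1.51 (ACLY) to 2.68 (HMGCS1).

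**Figure D3:**
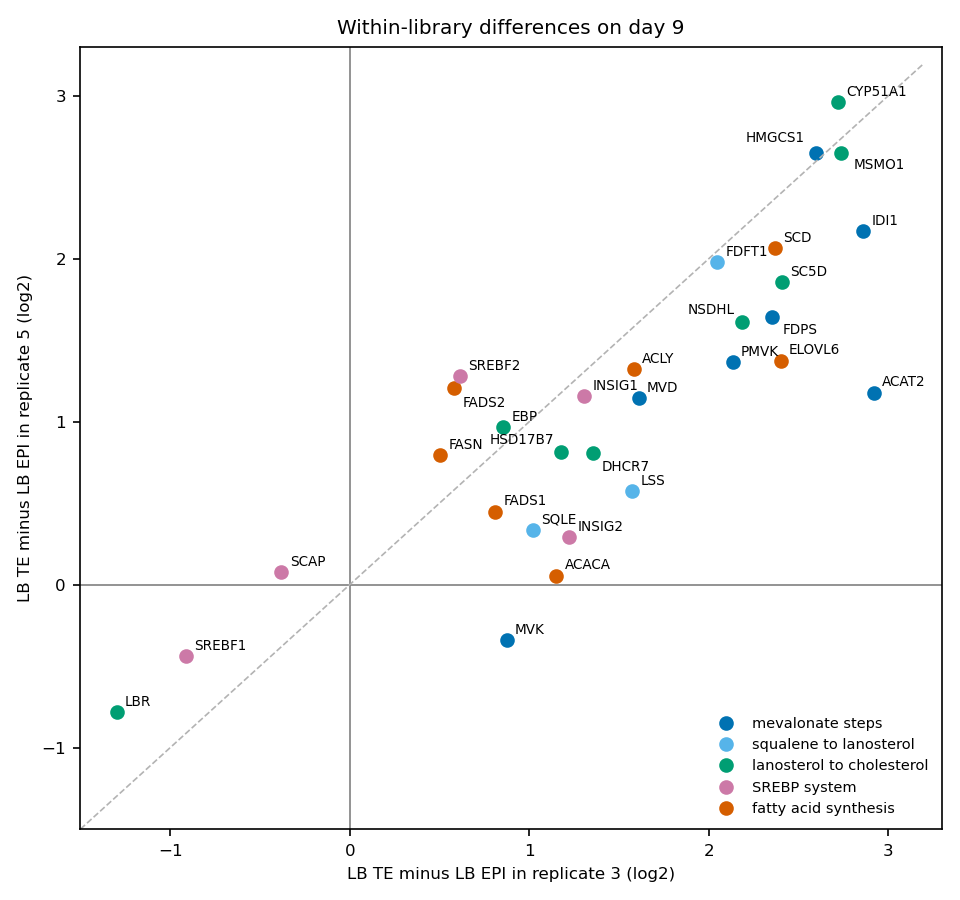
Difference LB TE minus LB EPI (log2) inside replicate 3 (horizontal) and inside replicate 5 (vertical) for the 30 tested members, coloured by role; the dashed line marks equal values. CYP51A1, HMGCS1, MSMO1 and IDI1 lie at the upper right, and LBR and SREBF1 are negative in both libraries.

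Shares of cells with at least 1 read were also compared, over cells pooled from the libraries of a class. Most LB TE cells came from replicate 3 and most LB EPI cells from replicate 5, so these pooled shares mix library with class. After every cell was thinned to 50000 reads, which left out 4 of 45 LB EPI and 1 of 31 LB TE cells, PMVK was found in 83.3% of LB TE cells (95% exact binomial interval 65.3 to 94.4) and 31.7% of LB EPI cells (18.1 to 48.1). Unthinned, the shares were 96.8% and 55.6%. By library, the thinned share was 95.0% and 55.6% in LB TE of replicates 3 and 5, and 36.4%, 33.3% and 25.0% in LB EPI of replicates 2, 3 and 5. INSIG1 was found in 83.3% and 29.3% of thinned cells, and in 93.5% and 64.4% unthinned. By library, INSIG1 was found in 85.0% and 88.9% of thinned LB TE cells and in 2 of 11, 6 of 9 and 4 of 20 LB EPI cells of replicates 2, 3 and 5. CYP51A1 was found in every thinned LB TE cell and in 70.7% of LB EPI cells, where the share was 90.9%, 100% and 50.0% in replicates 2, 3 and 5. LBR was found in 90.0% and 100% of them. The intervals cover counting error only. TM7SF2 was seen in 7.69% to 22.6% of the cells of a class before thinning.

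On day 8 the same direction was seen with fewer calls. Of the 30 members, 3 were called higher in MB TE than in MB ICM and 0 lower. The background was 5.97% of all genes called higher and 4.11% lower. The median member difference was 0.60, against -0.04 for all genes, and 27 of 30 differences were positive. ACAT2 averaged 53.9, 139 and 128 CPM in MB TE of replicates 1, 2 and 3, and 17.7, 73.0 and 7.10 CPM in MB ICM of replicates 1, 2 and 5. Its difference was 1.54 ± 0.47 (limma adjusted p = 0.0417). PMVK averaged 25.5, 93.8 and 25.7 CPM against 8.14 and 22.1 CPM in replicates 1 and 2, with no read in the 5 MB ICM cells of replicate 5 (1.39 ± 0.41, adjusted p = 0.0345). ACLY averaged 362, 419 and 532 CPM against 147, 312 and 108 CPM (1.13 ± 0.34, adjusted p = 0.0365). The MB TE average of replicate 3 held only 3 cells, and those of replicates 1 and 2 held 21 and 12. With at least 5 cells per average, ACAT2 and ACLY lost the call. The MB ICM average of replicate 5 held 5 cells, of 2633 to 259916 reads each.

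For ACAT2 the day 8 groups overlapped, and for PMVK and ACLY they did not. Non-overlap upwards was found for 5 members, MVK, PMVK, FDFT1, ACLY and FASN, against 12.7% of all genes. It was found downwards for 0 members, against 12.3%. HMGCS1 averaged 217.5, 410.4 and 414 CPM in MB TE and 93.1, 274 and 142 CPM in MB ICM (0.85 ± 0.44, adjusted p = 0.266). CYP51A1 differed by 1.05 ± 0.44 (adjusted p = 0.158), and MSMO1 reached an adjusted p of 0.0983. With the library as a fixed block, MSMO1 was called (adjusted p = 0.0145), PMVK was not, and ACAT2 and ACLY still were. FASN averaged 462, 549 and 640 CPM in MB TE and 298, 415 and 67.3 CPM in MB ICM (1.18 ± 0.47, adjusted p = 0.128). LBR again had the opposite sign, at -0.62 ± 0.33 (adjusted p = 0.269), with its MB ICM average of replicate 5 at 164 CPM. Replicates 1 and 2 held both classes, and inside them 25 and 22 of 30 members were higher in MB TE, with medians of 0.59 and 0.38. Of all genes, 48.7% and 42.4% were higher there. The number of calls fell to 0 without replicate 1, to 1 without replicate 3 and to 0 without replicate 5, and the limma-voom fit on recovered reads called 0. Without replicate 2, PMVK lost the call (adjusted p = 0.123).

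Whether the distance between TE and the inner class grew from day 8 to day 9 was tested as 1 contrast, with LB EPI set against MB ICM as the inner class. The 9 hypoblast markers summed to 3940 to 4240 CPM in MB ICM and to 571 to 866 CPM in LB EPI. The inner classes thus differed in their markers as well as in age, and these cannot be told apart here. The same limit holds for LB EPI against MB ICM below. No member was called by limma, and 6 had an unadjusted p under 0.05, all positive. Limma-voom also called 0. Of all genes, 0.215% were called with a larger and 0.152% with a smaller distance on day 9. The 6 were HMGCS1 (1.65 ± 0.66, adjusted p = 0.387), IDI1, CYP51A1 (1.55 ± 0.67, adjusted p = 0.443), NSDHL, SC5D and ELOVL6. With the library as a fixed term, CYP51A1 and MSMO1 were called.

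No member was called either from MB TE to LB TE or from MB ICM to LB EPI. Between LB TE and MB TE, 0 members passed, 1 (SCD, adjusted p = 0.74) had an unadjusted p under 0.05, and limma-voom called 0. Of the 30 differences, 22 were positive, with a median of 0.29 against 0.03 for all genes. Inside replicate 3, which held 3 MB TE cells, 25 of 30 members were higher in LB TE, against 56.4% of all genes. SCD averaged 796 and 343 CPM in LB TE against 218, 351 and 253 CPM in MB TE. All-gene calls were 0.159% higher and 0.0319% lower. Between LB EPI and MB ICM, 0 members passed, 3 had an unadjusted p under 0.05, and 8 of 30 differences were positive (median -0.33). All-gene calls there were 3.29% higher and 1.81% lower. The 3 were IDI1 (-1.14 ± 0.41, adjusted p = 0.129), SC5D (-1.03 ± 0.44, adjusted p = 0.229) and LBR (0.78 ± 0.33, adjusted p = 0.211). IDI1 averaged 94.2, 211 and 38.5 CPM in MB ICM, and the limma-voom fit called it, LBR, NSDHL and SC5D. Over all genes, limma-voom called 575 higher and 531 lower there, against 413 and 227 with limma on the averages.

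The hypoblast class was set against each of the other day 9 classes. Against LB TE, 3 members were called lower in LB PE and 0 higher, beside 3.39% and 2.46% of all genes. HMGCS1 averaged 269.6 and 49.5 CPM in LB PE of replicates 3 and 5 (-2.10 ± 0.53, adjusted p = 0.0236). CYP51A1 averaged 142 and 42.2 CPM (-2.22 ± 0.53, adjusted p = 0.0172), and MSMO1 averaged 154 and 108 CPM (-2.08 ± 0.51, adjusted p = 0.0196). Each lay below both LB TE averages given above. In all, 14 members lay below without overlap (22.1% of all genes did) and 1, SREBF1 at 44.2 and 39.8 CPM, above (21.6%). Inside replicates 3 and 5 the median member differences were -1.02 and -1.12, against 0.08 and -0.07 for all genes. With the library as a fixed block 10 members were called lower, beside 420 of all genes. Without replicate 5 each class had 1 average, and the member calls were lost, as were most calls over all genes. Without replicate 2, 6 members were called lower, beside 339 of all genes, against 425 with all libraries. Without replicate 3, MSMO1 and CYP51A1 lost the call (adjusted p = 0.247 and 0.0714).

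Against LB EPI, 0 members were called in LB PE, where 2.98% of all genes were called higher and 2.41% lower. An unadjusted p under 0.05 was reached by 1 member, LBR, and limma-voom called 0. The median difference was 0.20. LB PE had the shallowest cells, and its average of replicate 5 was the one with the most fibroblast marker RNA, 1030 CPM against 266 CPM in replicate 3. Whether these bear on the comparison was not tested.

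From Morula to EB, 28 of 30 fitted differences were positive, with a median of 0.51 against -0.004 for all genes, and no member was called. EB had 1 average, from replicate 4, so its spread was assumed to be that of the other classes, and the standard errors and p-values rest on those. An unadjusted p under 0.05 was reached by 2 members, limma-voom called 0, and 0.0399% of all genes were called in each direction. CYP51A1 averaged 36.4 and 7.95 CPM in Morula of replicates 4 and 6 and 99.8 CPM in EB (1.80 ± 0.67, adjusted p = 0.784). FADS2 averaged 14.4 and 8.25 CPM in Morula and 49.7 CPM in EB (1.46 ± 0.65, adjusted p = 0.955). HMGCS1 averaged 91.9 and 61.1 CPM in Morula and 171 CPM in EB. Inside replicate 4, 25 of 30 members were higher in EB, with a median of 0.42, against 52.9% of all genes. ELOVL6 did not follow this: its Morula averages of 1113 and 827 CPM were already near its EB average of 1153 CPM and above every MB ICM and LB EPI average.

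The members also differed between libraries of the same class. In LB TE all 30 tested members were higher in replicate 3 than in replicate 5, against 57.0% of all genes. In LB PE 28 of 30 were higher in replicate 3, against 66.3%. In LB EPI replicate 5 was the lowest of 3 for 24 members (32.2% of all genes) and replicate 2 the highest for 23 (32.3%). In MB ICM replicate 5 was again the lowest for 24 (48.1%) and replicate 2 the highest for 24 (36.4%), and in MB TE replicate 2 was the highest for 19 (28.0%). The median member of MB ICM in replicate 2 stood 1.25 above the mean of the other libraries on the log2 scale. Of the libraries with classes of days 8 and 9, replicate 2 had the deepest cells, with a median of 195159 reads. Its MB TE and LB EPI cells were the deepest of their classes, with medians of 307521.5 and 216676. Its MB ICM cells were not, with a median of 132481 reads against 141160.5 in replicate 1. Replicate 5, with 184334 reads, was deeper than replicate 3, with 109997. The part of depth was not tested. The MB ICM average of replicate 2 also held the most fibroblast marker RNA of its class, 696 CPM, whose part was not tested. All these libraries carry the same wildtype label, and the labels do not say which embryos each held.

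**Figure D4:**
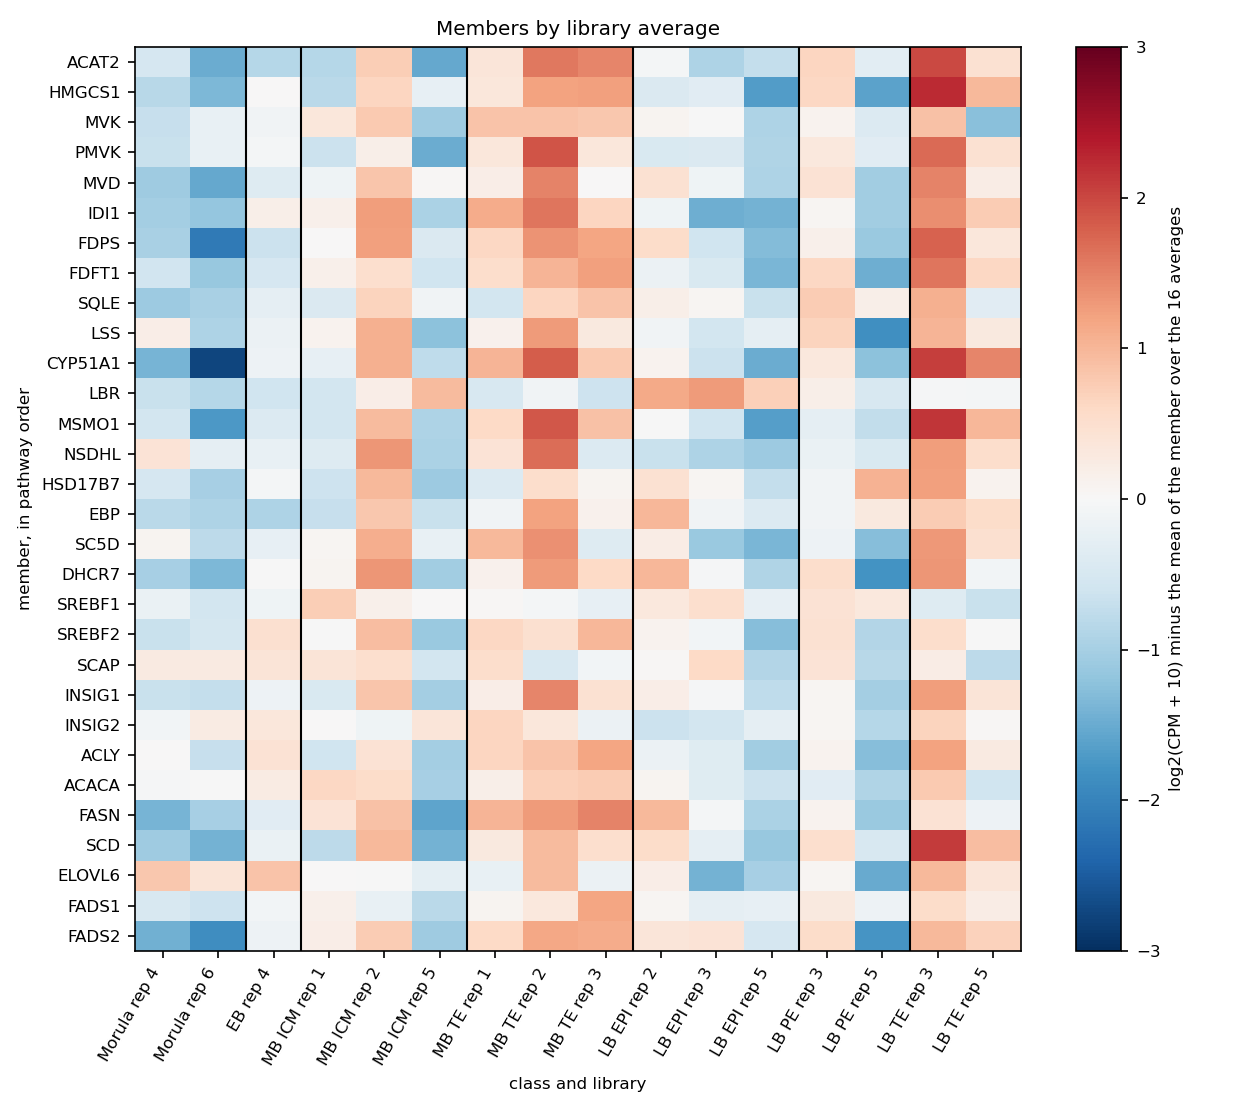
Level of each tested member, log2(CPM + 10) minus its mean over the 16 averages, by class and library, with members in pathway order. Within LB TE and LB PE the replicate 3 column is redder than that of replicate 5, and within MB ICM and LB EPI the replicate 2 column is reddest. Over all 16 averages, the rows of LBR, SREBF1 and SCAP follow the mean of the other cholesterol enzymes least, by rank correlation.

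Most members had levels that rose and fell with those of the cholesterol enzymes across averages. Each member was correlated by rank with the mean log2 level of the other cholesterol enzymes over the 16 averages, which share libraries and depths, and 21 of 30 had a Spearman coefficient above 0.7. After class means were removed, which left 15 averages, 22 did. Of all 12540 genes tested, 2.66% were above 0.7, and 2.81% once class means were removed. MSMO1 (0.98), CYP51A1 (0.97), FDPS (0.96) and INSIG1 (0.95) were closest, and of the fatty acid genes FADS2 (0.95) and SCD (0.92, and 0.98 with class means removed). At the other end stood SREBF1 (-0.07), LBR (0.06), SCAP (0.19) and INSIG2 (0.34). With class means removed these were 0.42, 0.35, 0.58 and -0.05, in the same order. SREBF2 reached 0.84. Genes are not independent replicates, and these coefficients are descriptions of the 16 averages.

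Single cells of an average varied widely in some pools. The levels of the 19 cholesterol enzymes were summed in each cell. The median cell held 4624 CPM in LB TE of replicate 3 and 2227 CPM in replicate 5, against 1291, 1314 and 660 CPM in LB EPI of replicates 2, 3 and 5. In LB PE the median cell held 1770 and 782 CPM. On day 8 it held 2166, 4542 and 2326 CPM in MB TE of replicates 1, 2 and 3, and 1121, 2153 and 970 CPM in MB ICM of replicates 1, 2 and 5. Morula cells held 725 and 516 CPM in replicates 4 and 6, and EB cells 1126 CPM. In MB ICM of replicate 2, 6 of 21 cells lay between 5281 and 7627 CPM, and the next highest cell was at 2849 CPM. Within that average the summed level was not ordered with depth (Spearman 0.05 over 21 cells), and it rose with the summed level of the 7 fatty acid genes (0.56). The fatty acid sum itself went with depth there (0.60). In the other averages of at least 20 cells the 2 sums had coefficients of 0.33 to 0.35. In MB ICM of replicate 2, the coefficients of the cholesterol enzyme sum with trophectoderm, epiblast, hypoblast and fibroblast markers were -0.28, -0.18, 0.27 and -0.24. In the 24 LB EPI cells of replicate 5 they were 0.59, -0.47, 0.63 and 0.14, and that with depth was -0.47. In LB TE of replicate 3 the summed level went with depth (0.63 over 21 cells).

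**Figure D5:**
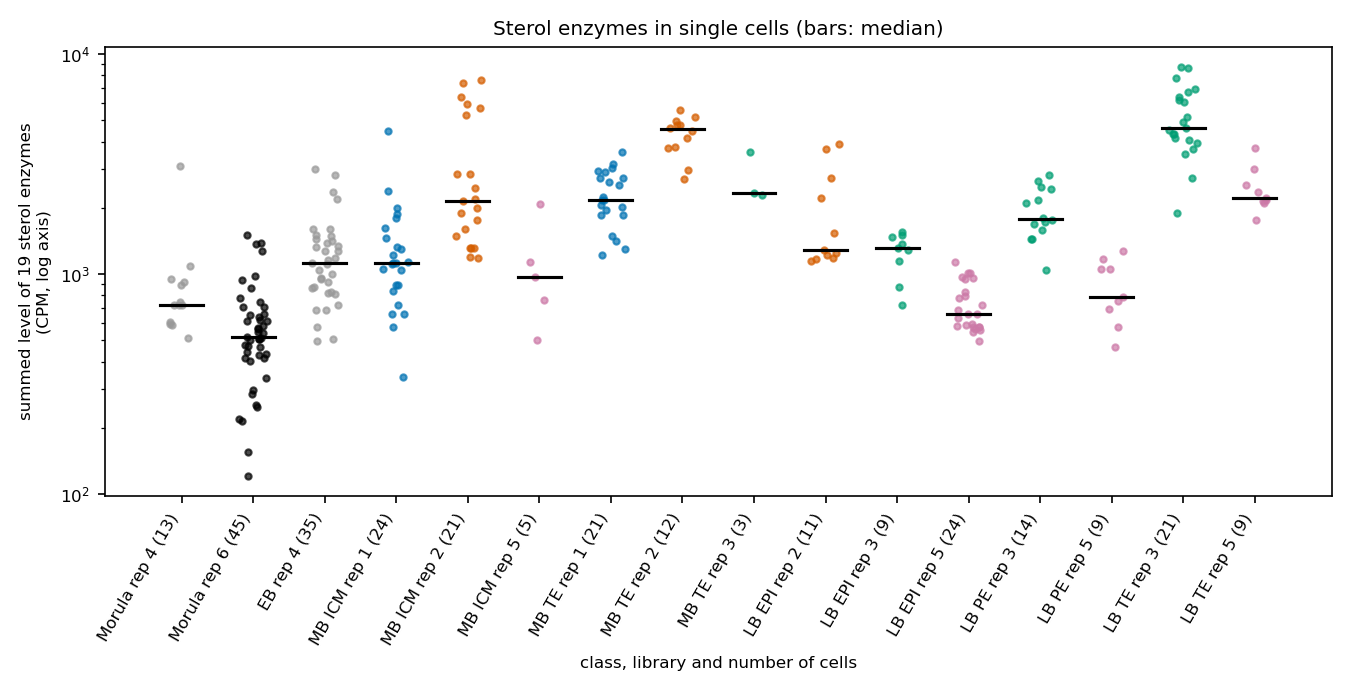
Summed level of the 19 cholesterol enzymes in each cell (CPM, log axis) by class and library, with the number of cells in brackets, points coloured by replicate and a bar at the median. LB TE of replicate 3 and MB TE of replicate 2 have the highest medians, 4624 and 4542 CPM, and MB ICM of replicate 2 has 6 cells from 5281 CPM up.

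Other genes of the routes did not share one direction. Of a list of 28 further sterol genes, covering uptake, transport, esterification and sensing, 25 were tested, and between LB TE and LB EPI 2 were called higher and 3 lower, with a median of 0.05. GRAMD1C, a sterol transfer protein at membrane contacts, was higher by 1.99 ± 0.39 (limma adjusted p = 0.00122), and SOAT1, which stores cholesterol as esters, by 0.84 ± 0.28 (adjusted p = 0.0497). SOAT1 lost the call under 13 of 14 settings. GRAMD1A, a second protein of that transfer family, fell by 2.06, mitochondrial thiolase ACAT1 by 1.78 and MYLIP, a ubiquitin ligase, by 1.66. Without replicate 3, GRAMD1C, GRAMD1A, MYLIP and SOAT1 lost the call (adjusted p = 0.0718, 0.0607, 0.178 and 0.205).

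Of 28 further fatty acid genes, 23 were tested, and 6 were called higher and 2 lower in LB TE than in LB EPI. ACSL3, which activates long-chain fatty acids, was higher by 2.93 ± 0.32, FADS3 by 2.61 ± 0.38 and ELOVL1, an elongase of very long chains, by 1.70 ± 0.30. These 3 calls held in all 14 settings. SCD5, another stearoyl-CoA desaturase, fell by 2.07 and ELOVL4 by 1.39, while SCD rose. SCD5 lost the call without replicate 3 (adjusted p = 0.0759) and ELOVL4 without replicate 5 (0.108). In MB TE against MB ICM, 5 of the fatty acid genes were called higher, among them FADS3 (2.97 ± 0.34), ACSL4 (2.14 ± 0.34) and ACSL3 (1.74 ± 0.28), and TECR was lower by -1.16 ± 0.30. None of the further sterol genes was called higher there, while 3 were lower: SCARB1 (-1.83 ± 0.38), ACAT1 (-1.56 ± 0.35) and GRAMD1A (-1.25 ± 0.34). SCARB1 lost the call without replicate 2 (adjusted p = 0.114), and TECR and GRAMD1A without replicates 2, 3 or 5. SCD5 was also the one fatty acid gene called higher in LB EPI than in MB ICM, by 2.02 ± 0.40, and lost the call without replicate 5 (adjusted p = 0.0606).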

How the data were processed

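Polyadenylated RNA of single cells was measured in 6 wildtype libraries. Trim Galore, HISAT2, featureCounts and Seurat (no versions given) and the build ARS-UCD1.2 are named in the submitters' processing notes. The authors deposited values on a natural log scale, as ln of 1 plus the value per 10000, which are normalized and not counts. Undoing the log gave 10000 per cell, and 100% of values were whole multiples of the cell's smallest step within 0.1 reads, which gave each cell's reads. The 7 classes are the authors' own, made from these same cells by a method the labels do not give. Of 288 cells in the cell table, 2 have no values.

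The values were rescaled to CPM, averaged per library and class, and transformed as log2(CPM + 10), which understates changes of low genes. CPM is not per length, so levels of different genes were not compared. The averages were fitted with limma 3.58.1 (R 4.3.3, statmod 1.5.0; trend and robust), with library as a random block (consensus correlation 0.18, 9 residual degrees of freedom). A gene was called at a Benjamini-Hochberg adjusted p under 0.05 over 12540 genes. The members and lists were chosen with earlier results of these data known. All members are accounted for, with full statistics for called ones, and of other pathway genes up to 5 called per list and comparison were named. The members' uncalled values were added for context. Some genes of the wider lists are not reported here. Tests were checked on simulated data. The 14 alternatives covered offset, filter, block, cells per average, averaging, limma-voom on recovered reads, scaling and each replicate left out. No genome or sequences of the build were used here.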

Additional observations from a re-analysis of the deposited data

Results flagged for a closer look

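GRAMD1C, a sterol transfer gene of the wider list, was the result for which the distance between TE and the inner class differed between day 8 and day 9 by a test of the difference itself. It was 2.53 ± 0.53 larger on day 9 (log2, SE; limma adjusted p = 0.035). GRAMD1C averaged 91.3 to 107.6 CPM in LB TE and 19.8 to 51.0 CPM in MB TE. In the inner classes it averaged 12.8 to 27.5 CPM in LB EPI and 51.0 to 73.2 CPM in MB ICM. It was highest in LB PE, at 105 to 173 CPM, and MB ICM held more hypoblast marker RNA than LB EPI. The part of this change of inner class was not tested. The call was lost under 9 of 14 alternative settings, with estimates from 2.03 to 3.26, among them those without replicate 1, 2, 3 or 5 (adjusted p = 0.212, 0.104, 0.494 and 0.0982). No group had more than 3 averages, so single averages were not screened for outliers.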

How the results depend on the processing

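No called gene named in the text reversed its direction under any of the 14 alternatives. Of the uncalled members given a difference, 3 did between LB TE and LB EPI: MVK (-0.567 without replicate 3, to 0.864 without replicate 5), ACACA (-0.069 to 0.952 over the same settings) and SCAP (0.005 with limma-voom). The cause of each change below was not tested, beyond what the alternative itself alters. For LB TE against LB EPI, the 14 member calls became 8 with no filter on low values, 6 with no replicate block and 17 with the library as a fixed replicate block, an alternative chosen after seeing the data. All genes called there numbered 1616, 1461 and 1890 in the same order, against 1902. Leaving out 1 library gave 1 to 14 calls. All 14 were among the calls of limma-voom (19) and of the mean over cells of log2 values (17). For MB TE against MB ICM, the 3 calls became 0 with no filter, 0 with no replicate block, 3 with the fixed block, PMVK lost and MSMO1 gained, 1 with at least 5 cells per average, 8 with the mean of log2 values and 0 with limma-voom, and 0 to 3 with 1 library left out. All genes called higher there numbered 535 with no filter, 614 with no replicate block and 611 with the fixed block, against 749. They numbered 561 with at least 5 cells per average, 1274 with the mean of log2 values and 865 with limma-voom. For LB PE against LB TE, the 3 calls became 0 with no filter, 0 with no replicate block, 10 with the fixed block, 13 with the mean of log2 values and 6 with trimmed mean scaling, and 0 to 6 with 1 library left out. With the mean of log2 values, all-gene calls there were 219 higher and 1027 lower, against 309 and 425. All genes called lower numbered 319 with no filter, 248 with no replicate block, 420 with the fixed block and 483 with trimmed mean scaling. Limma-voom also called 3 there, FDFT1, CYP51A1 and SCD. For LB EPI against MB ICM, limma-voom called 4 and the fixed replicate block 1, and leaving out 1 library gave 0 to 1. All genes called there numbered 1106 with limma-voom and 401 with the fixed block, against 640. For LB PE against LB EPI, the mean of log2 values called 1, beside 994 of all genes, against 676. For the day 9 minus day 8 difference, the fixed block called 2, beside 48 of all genes, against 46. EB against Morula could not be fitted without replicate 4, and its 0 member calls held in the settings that were run. The replicate numbers here name libraries, and a library gave cells of several classes. The random block allowed averages of the same library to be correlated, and its estimates also drew on differences between libraries. Among the fits, only the fixed block compared classes through differences inside libraries. Over all genes, calls between LB TE and LB EPI ran from 851 without replicate 3 to 3168 with limma-voom, against 1902. Calls between MB TE and MB ICM ran from 635 to 1673, against 1264, and between LB PE and LB TE from 168 to 1246, against 734. Precision was limited by the number of libraries, at most 3 per class; LB PE cells had the fewest reads (median 39210).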
